A study of Arabidopsis thaliana with 6 samples.

Results

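Abscisic acid is the plant hormone of seed dormancy, drought and stomatal closure. It is perceived by the PYR/PYL receptors, soluble proteins which, once they hold the hormone, inhibit the clade A protein phosphatases and so release the SnRK2 kinases that activate ABF/AREB transcription factors. Its level falls through the CYP707A enzymes, cytochrome P450s that hydroxylate abscisic acid as the main step of its catabolism. The receptor genes PYL4 (AT2G38310), PYL5 (AT5G05440) and PYL6 (AT2G40330), and the catabolism genes CYP707A1 (AT4G19230), CYP707A2 (AT2G29090), CYP707A3 (AT5G45340) and CYP707A4 (AT3G19270) were examined for binding by LEAFY (LFY), the floral regulator. These 7 genes, of 27444 protein-coding genes on the 5 chromosomes, were chosen from earlier results on the same lists, in which PYL5 stood near the lowest and CYP707A1 near the highest coverage fold reduction. Their binding and its reduction are therefore given as a description, without a test.

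Chromatin immunoprecipitation sequencing (ChIP-Seq) with an antibody against the carboxy-terminal part of LFY was carried out on whole 15-day-old A. thaliana seedlings, aerial parts and roots together, of p35S:LFY, of p35S:LFYTERE and of wild-type Col-0, with 2 biological replicates per genotype. Both transgenes carry an LFY cDNA under the constitutive 35S promoter, so the protein is present in cells that do not normally make it. LFYTERE has the T75E and R112E substitutions in the SAM domain through which LFY oligomerizes. Each transgene was represented by a single line, labelled CA26-15 for the wild-type protein and CA29-17 for the mutant one, and the same Col-0 seedlings served as control for both. Replicates had been fused in the deposited lists, so that each bound region has 1 value and no spread between replicates can be attached to it.

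The p35S:LFY list holds 1954 regions with a median width of 365 bp, and the p35S:LFYTERE list holds 176 with a median width of 293 bp. Each region has a rank, 1 being the best of its list, and a coverage fold reduction (CFR), the normalised coverage in p35S:LFY divided by that in p35S:LFYTERE. The median CFR was 7.40 in the p35S:LFY list, with quartiles of 4.82 and 13.0. The p35S:LFY libraries were sequenced more deeply than the p35S:LFYTERE libraries according to the study, and the part of depth in the difference between the lists was not tested.

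LFY bound next to or inside 4 of the 7 genes, namely PYL4, PYL5, CYP707A1 and CYP707A2, each with a single region whose midpoint lay in the gene or within 3 kb of it. PYL5 was the only one of the 7 with a p35S:LFYTERE region. Over all protein-coding genes, 13.5% had a p35S:LFY region within 3 kb and 1.49% had a p35S:LFYTERE region, and nothing is read from the difference because the genes were chosen with the lists known. PYL6, CYP707A3 and CYP707A4 had no region of either list within 10 kb, nor within 20 kb. The CFR values of the 4 regions spanned a factor of 62.9, from 1.58 at PYL5 to 99.5 at CYP707A1, a span set by the choice of these genes, while PYL4 and CYP707A2 lay near the median of the list.

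**Figure D1:**
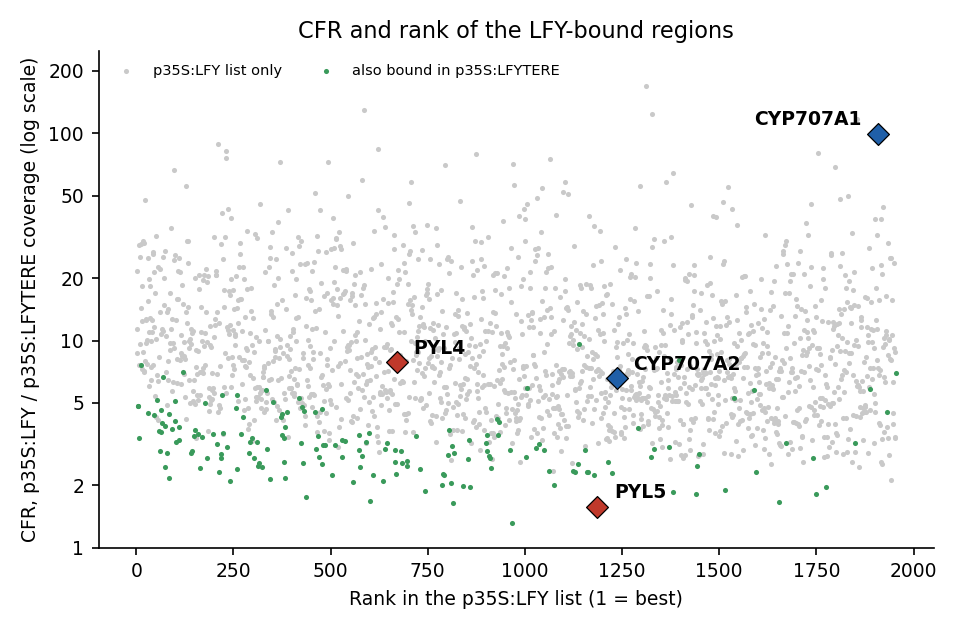
CFR on a log axis against rank for the regions of the p35S:LFY list, with regions that overlap a p35S:LFYTERE region in green and the 4 regions of abscisic acid genes as diamonds (red, receptors; blue, catabolism genes). The 2 regions with a CFR above 300 are not drawn. PYL5 sits at the lower edge (CFR 1.58), CYP707A1 near the upper edge (99.5), and PYL4 (7.87) and CYP707A2 (6.57) in the middle.

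Of the receptors, PYL4 was bound at one end of the gene. The region spans 395 bp of TAIR10 chromosome 2 (16049719 to 16050113) and overlaps the end of PYL4 that faces the neighbouring gene AT2G38300, with its midpoint just outside the gene. It had rank 670, the best rank of the 4, and a CFR of 7.87, so that LFYTERE coverage was 12.7% of LFY coverage. In the list, 1038 regions had a lower CFR and 915 a higher one. No p35S:LFYTERE region overlapped it. No other p35S:LFY region had its midpoint within 10 kb, which was also true of the regions of PYL5, CYP707A1 and CYP707A2.

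PYL5 was bound inside the gene in both genotypes. The p35S:LFY region runs from 1609271 to 1609918 on TAIR10 chromosome 5 and had rank 1186. Its CFR of 1.58 was undercut by only 1 region of the list, and LFYTERE coverage there was 63.2% of LFY coverage. At 648 bp the region was wide for the list, with 46 of the 1954 regions wider. The p35S:LFYTERE region (1609328 to 1609777, 450 bp) lies wholly within it and had rank 3 of 176, with a CFR of 1.49 over its own bounds. In the p35S:LFYTERE list 5 regions had a lower CFR than PYL5. Of all p35S:LFY regions, 8.85% overlapped a p35S:LFYTERE region, and of the 4 regions described here the PYL5 region was the 1 that did.

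The PYL5 region ranked 3 of 176 in p35S:LFYTERE and 1186 of 1954 in p35S:LFY. Ranks order regions within 1 list only, the lists differ in length, and a region chosen for a low CFR is likely to stand higher in the p35S:LFYTERE list, so the ranks are given side by side and no change is read from them. Only 16 of the 163 regions that pair one to one between the lists had a worse p35S:LFY rank. As a share of each list, PYL5 was preceded by 1.14% of the p35S:LFYTERE regions and by 60.6% of the p35S:LFY regions. The NF-Y subunit gene NF-YC4, which holds the best p35S:LFYTERE rank, had rank 967 in p35S:LFY. Of the 10 best p35S:LFYTERE ranks, 7 belong to such pairs, with p35S:LFY ranks from 85 to 1186, of which PYL5 was the worst. The bounds of the region moved the CFR of PYL5 by a factor of 1.06, the same as the median of 1.06 over the 163 pairs.

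**Figure D2:**
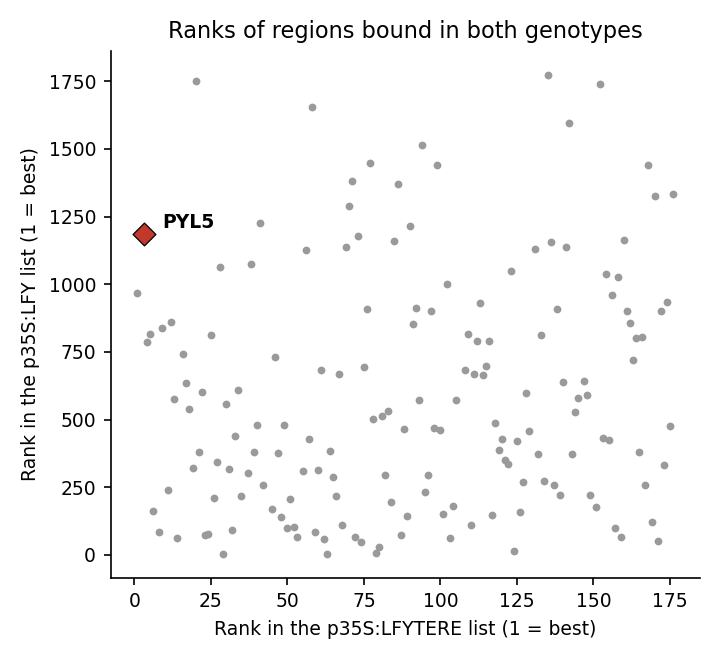
Rank in the p35S:LFY list against rank in the p35S:LFYTERE list for the 163 regions that pair one to one between the lists, each point being 1 pair and low ranks being best. PYL5 (red diamond) lies at rank 3 on the horizontal axis and at 1186 on the vertical one.

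The remaining receptor gene, PYL6, had no LFY-bound region nearby. The nearest p35S:LFY region lies more than 20 kb away, from 16821046 to 16821308 on TAIR10 chromosome 2, and is closest to AT2G40270. It had rank 1922 and a CFR of 44.2, and no p35S:LFYTERE region overlapped it. ABI4, an AP2-type transcription factor gene of abscisic acid signalling, lies within 50 kb of PYL6 and also had no region within 10 kb.

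Among the catabolism genes, CYP707A1 had the strongest reduction. Its region of 290 bp (TAIR10 chromosome 4, 10519378 to 10519667) lies between AT4G19220 and CYP707A1, between 1 and 3 kb from the latter, which is its nearest gene. The CFR was 99.5, so that LFYTERE coverage was 1.00% of LFY coverage, and 6 of the 1954 regions had a higher value. A CFR above 50 was reached by 1.74% of all p35S:LFY regions. The region had rank 1908, which places it among the last of the list, and 1610 regions were wider. It was thus a region of low rank, narrow and without a p35S:LFYTERE counterpart, and the list does not show how precise a CFR is when LFYTERE coverage, its denominator, is so small.

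CYP707A2 was bound on the side of the gene that faces FTSH3, a gene for a mitochondrial FtsH protease. The region spans 379 bp of TAIR10 chromosome 2 (12494033 to 12494411) between these genes, less than 1 kb from CYP707A2, which is the closer. It had rank 1236 and a CFR of 6.57, LFYTERE coverage being 15.2% of LFY coverage. In the list, 830 regions had a lower CFR and 1123 a higher one. Its CFR differed from that of PYL4 by a factor of 1.20 and was 15.1-fold below that of CYP707A1. PYL5, only 50 ranks ahead of CYP707A2, had a CFR lower by a factor of 4.15.

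CYP707A3 and CYP707A4 had no p35S:LFY region within 20 kb. No p35S:LFY region lies within 50 kb of CYP707A3, and the nearest on its chromosome (18439722 to 18439990, rank 1318, CFR 5.38) is closest to AT5G45500. The 3 p35S:LFY regions within 50 kb of CYP707A4 are all more than 20 kb away, and the nearest (TAIR10 chromosome 3, 6639519 to 6639857, rank 1360, CFR 5.44) is closest to the autophagy gene ATG2. ABF4, a bZIP transcription factor gene of abscisic acid signalling within 50 kb of CYP707A4, also had no region within 10 kb. Neither gene had a p35S:LFYTERE region within 50 kb. Cytochrome P450 genes as a whole, 219 by their symbol, had a p35S:LFY region within 3 kb in 36 cases (16.4%) and a p35S:LFYTERE region in 3, near the shares of 13.5% and 1.49% over all protein-coding genes.

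To set rank aside, each CFR was compared with those of the regions up to 100 ranks before and after it. PYL4 lay close to the middle of its 200 neighbours, with 97 lower and 103 higher and a median of 8.22. CYP707A2 did so too, with 96 of 200 neighbours lower and a median of 6.80. Every one of the 200 neighbours of PYL5 had a higher CFR, the lowest of them being 2.24. Of the 146 neighbours of CYP707A1, which is close to the end of the list, 145 had a lower CFR and 1 a higher one, against a median of 8.23. PYL5 and CYP707A1 were chosen with their extreme CFR in this list known, 1 region being lower than PYL5 and 6 higher than CYP707A1. Their extreme place among regions of like rank follows from that choice and adds no separate support.

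**Figure D3:**
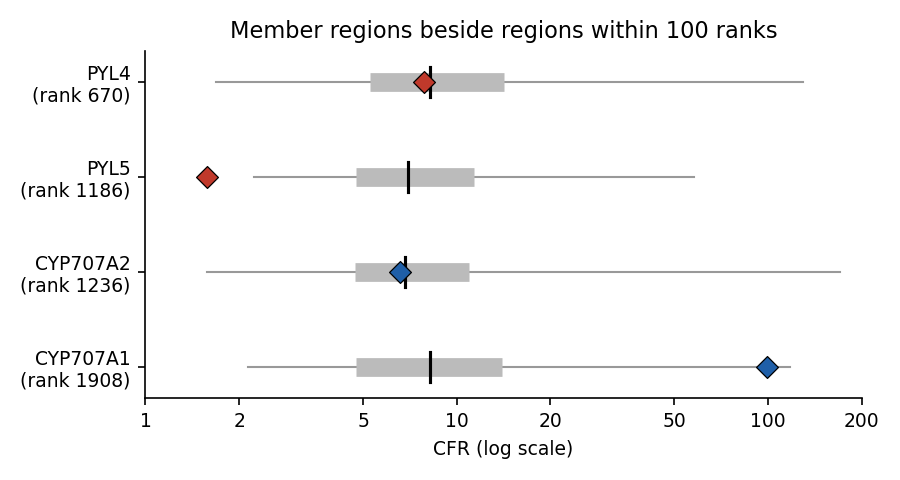
CFR on a log axis for the 4 regions (diamonds; red, receptors; blue, catabolism genes) beside the regions up to 100 ranks on either side, shown as range (line), quartiles (grey bar) and median (black tick). PYL5 at 1.58 lies below the whole range of its neighbours, CYP707A1 at 99.5 lies near the top of its range, and PYL4 and CYP707A2 lie close to their medians.

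By rank and CFR together, the regions most like that of PYL4 were those of AT3G47341 (rank 684, CFR 7.85), cwINV4, named as a cell wall invertase gene (rank 680, 7.73), and HA11, named as a plasma membrane proton pump gene (rank 693, 7.99). Their differences in rank percentile and CFR percentile added up to 0.819, 1.13 and 1.69 percentage points. Those most like CYP707A2 were the regions of ACR3 (rank 1250, CFR 6.63), AT1G23700 (rank 1226, 6.68) and AT5G63150 (rank 1252, 6.51), at 1.28, 1.38 and 1.43 points. None of these 6 regions overlapped a p35S:LFYTERE region, beside 8.85% of all p35S:LFY regions that did. Nothing is read from this, since the 6 are few and were picked for their CFR.

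The rest of the abscisic acid pathway was followed with 60 further genes, of which 9 had a p35S:LFY region within 3 kb (15.0%), close to the 13.5% of all protein-coding genes. None had a p35S:LFYTERE region within 3 kb, beside 1.49% of all protein-coding genes. Their 11 regions had CFR values from 2.54 to 54.7 with a median of 5.50, against 7.40 in the whole list. The other 11 receptor genes, including PYR1, had none within 3 kb. Of these PYL1, PYL3 and PYL13 had a region within 10 kb, each closer to another gene, and that of PYL3 (rank 310, CFR 3.24, nearest to AT1G73020) overlapped a p35S:LFYTERE region of rank 55. Within 10 kb, 18 of the 60 further genes had a p35S:LFY region. The share of all protein-coding genes was not computed at that distance, so nothing is read from these receptor genes.

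The clade A phosphatases, the family that the receptors inhibit, had a region within 3 kb in 5 of 9 genes (55.6%, beside 13.5% of all protein-coding genes), namely ABI1, HAB2, AHG1, PP2CA and HAI1. No test was made of this count. Their 7 regions had CFR values between 4.52 and 10.03 with a median of 7.53. None overlapped a p35S:LFYTERE region, which with 8.85% of all p35S:LFY regions doing so says little for 7 regions. HAI1 was bound at 2 places inside the gene on TAIR10 chromosome 5. The first (23894607 to 23895239) had rank 49, the best rank of any abscisic acid gene followed here, and a CFR of 5.42. The second (23895552 to 23895800) had rank 1900 and a CFR of 4.52. HAB2 was also bound inside the gene (chromosome 1, 6034167 to 6034595, rank 1004, CFR 7.53).

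AHG1, a phosphatase of seeds, had a region of 706 bp within 1 kb (chromosome 5, 21029256 to 21029961, rank 716, CFR 9.74). PP2CA had one within 1 kb as well (chromosome 3, 3582712 to 3583137, rank 575, CFR 4.69). The 2 regions of ABI1 on chromosome 4 (13223295 to 13223638, rank 719, CFR 8.78; 13223750 to 13223971, rank 1403, CFR 10.03) lie between ABI1 and RPS2, a disease resistance gene, and are closer to RPS2. ABI2, HAB1 and HAI3 had no region within 10 kb. HAI2 had one within 10 kb that is closest to AT1G07450.

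Of 10 synthesis genes, ABA4, needed for neoxanthin formation, had a region within 3 kb (rank 626, CFR 5.50), which lies inside the Rubisco small subunit gene RBCS1A. None of the 5 NCED genes followed, which encode the carotenoid cleavage step, had one at that distance. A gene named NCED4, outside these 5, is the nearest gene of a p35S:LFY region (rank 1379, CFR 5.38). The 3 SnRK2 kinase genes had no region within 3 kb, nor did the 10 transcription factor genes with ABI3, ABI4, ABI5 and ABF1 to ABF4. Of 6 transporter genes, NPF4.6, an abscisic acid importer also named NRT1:2, had a region with a CFR of 54.7 (rank 1044), and ABCG31 had one with a CFR of 2.54 (rank 1633), which lies inside another gene, ELF4-L1. Of 8 responsive genes, COR47, a dehydrin gene, had a region within 1 kb (rank 1387, CFR 5.10). The conjugation genes UGT71B6, BGLU18 and BGLU33 had none. Over all protein-coding genes 13.5% had a p35S:LFY region within 3 kb, and nothing is read from counts in groups as small as these. Across all 67 genes, PYL5 was the only one with a p35S:LFYTERE region within 3 kb (1.49%, beside 1.49% of all protein-coding genes). Nothing is read from these shares, since PYL5 was chosen with the lists known.

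**Figure D4:**
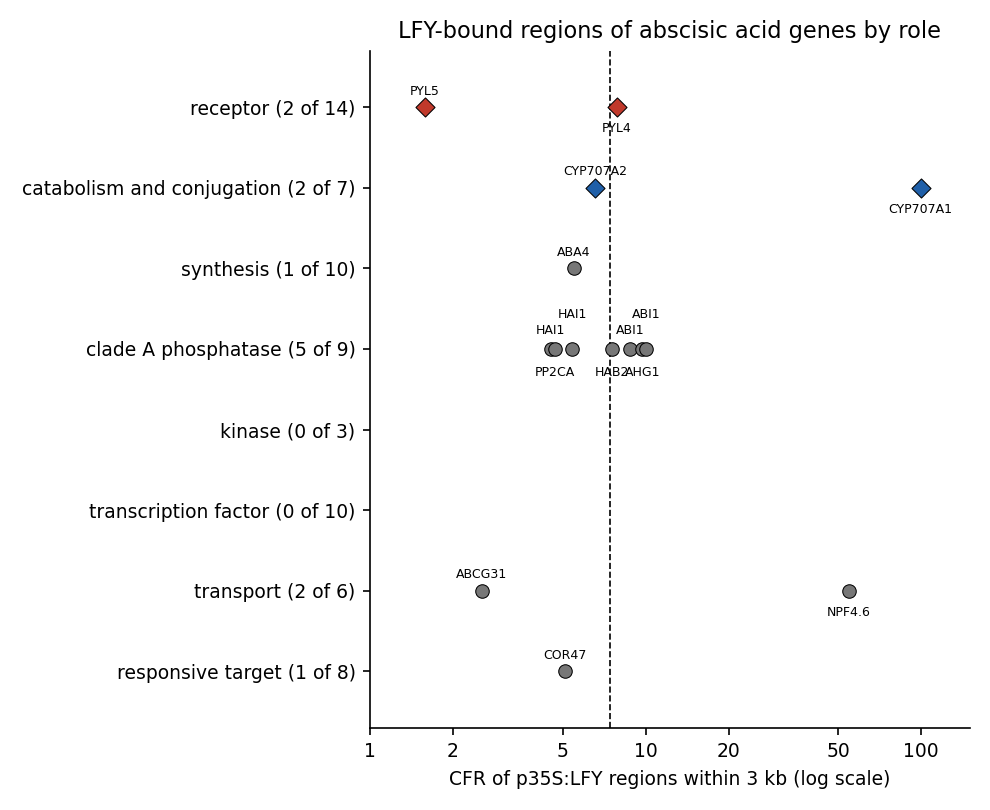
CFR on a log axis of the p35S:LFY regions within 3 kb of 67 abscisic acid genes, by role, with the number of genes that have a region beside each role. Diamonds are PYL4, PYL5, CYP707A1 and CYP707A2, circles are other genes, and the dashed line is the median of the whole list (7.40). The 7 phosphatase regions lie between 4.52 and 10.03, on both sides of the dashed line.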

How the data were processed

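Reads of 15-day-old seedlings had been mapped to TAIR10 (submitters' processing notes) and stripped of duplicates with SHORE by the authors, who kept regions that passed a false discovery rate in all 4 comparisons of replicates with Col-0. The deposited lists give for each region a rank, a score without unit that orders 1 list only, and CFR, a linear ratio of coverages that the authors scaled within and between genotypes and fused over replicates. Depth per region was not used here, so a gene without a listed region may hold weaker binding that the lists do not show.

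Genes came from the RefSeq TAIR10.1 table, which has no strand, exons or sequence. It served for names, neighbours and distance classes, and all coordinates printed are TAIR10 coordinates of the lists, 1-based. All 67 genes were matched by locus. A region belonged to a gene if its midpoint lay inside or within 3 kb, and regions were shared if they overlapped by 1 bp. Rank windows were 100 ranks either side. Genes named were the 7 members, pathway genes with a region within 3 kb, the nearest gene of each region within 10 kb of a member, and the 3 regions most like the best-ranked PYL and CYP707A region by summed difference in rank and CFR percentile. Other genes were named after their values were seen. Members and lists were chosen with earlier results of these data known. No test was made. The planned search for the LFY core motif in promoters was not run, since no sequence was used here. The window functions were tested on simulated data. Python 3.11.15, numpy 2.4.6, pandas 2.3.3, scipy 1.17.1 and matplotlib 3.10.9 were used.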

Additional observations from a re-analysis of the deposited data

How the results depend on the processing

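With only the 1000 p35S:LFY regions of best rank, 1 of the 7 genes (PYL4) was bound in place of 4, since PYL5, CYP707A1 and CYP707A2 rank later. Within 1 kb, 3 were bound, CYP707A1 being lost. The count was 4 with a window of 10 kb, with any base of the region in place of its midpoint, and with the nearest gene only. The share of all protein-coding genes was computed only for 3 kb and the whole list (13.5%). Of the 60 further pathway genes, 9 had a region within 3 kb and 18 within 10 kb. Stability is therefore not read from the unchanged count. PYL5 was the 1 gene bound in p35S:LFYTERE within 1 kb, within 10 kb, by any base and by nearest gene only. It was also the 1 gene among the 88 p35S:LFYTERE regions of best rank. Its p35S:LFYTERE region has its midpoint inside the gene and rank 3. No other of the 7 genes had such a region within 50 kb, so these rules could not change the count. That region lies wholly within the p35S:LFY region, so an overlap of 50% of the shorter region was also met by construction. Nothing is read from these checks. The CFR of PYL5 was 1.49 over the p35S:LFYTERE bounds and 1.58 over the p35S:LFY bounds.

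Without the regions of CFR above 300, the CFR percentile was 53.2 for PYL4, 42.5 for CYP707A2 and 99.7 for CYP707A1. It was 0.0512 for PYL5. So few regions were left out that no larger move was possible, and nothing is read from this. Against the 1000 best ranks PYL4 moved from 53.1 to 49.0, CYP707A2 from 42.5 to 40.2 and CYP707A1 from 99.6 to 99.9. Alternatives chosen after seeing the data gave 6 further pathway genes within 1 kb, 6 by nearest gene and 5 among the 1000 best ranks, in place of 9, and 4 phosphatase genes in place of 5 under each. The share of all protein-coding genes was not computed under these alternatives, so these counts cannot be set against it. No paired analysis was possible because replicates were fused in the deposited lists.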
